A study of Mus musculus with 20 samples.

Results

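Hippocampal transcriptomes of 5 hAPOE4 females (mice S164 to S168, the group F.APOE4) were compared with those of 5 hAPOE4 males (S174 to S178, M.APOE4), and the comparison was restricted to genes on the autosomes, chromosomes 1 to 19. All 10 mice were 16 months old and homozygous for human APOE4 at the mouse Apoe locus by targeted replacement, so the human protein is made under mouse control in every tissue and no group carried the mouse protein. Another 10 mice of the same age, homozygous for human APOE3 (5 females, F.APOE3, S144 to S148, and 5 males, M.APOE3, S154 to S158), completed the 20 animals of the series and entered the fit. Bulk polyA RNA of the dissected hippocampus was sequenced, and each library was 1 mouse. Of 33119 genes in the table, 29726 lay on an autosome, 20744 on any chromosome had at least 10 estimated counts in at least 5 of the 10 hAPOE4 columns, and 19253 of these were autosomal and were tested. The question was which autosomal genes differed between the sexes, and which of them stayed different when the hAPOE4 columns in which Omt2a exceeded 1 CPM (counts per 1000000 assigned counts, scaled by TMM) were left out.

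The 2 sexes differ in every cell by their sex chromosomes, and in the body by gonadal hormones, so autosomal genes that differ between females and males do so without a difference in gene copies. APOE is the main lipid carrier of the brain, made mostly by astrocytes and, after injury, by microglia, and the APOE4 allele is the strongest common genetic risk factor for late-onset Alzheimer's disease. Omt2a, the gene that sets which columns are left out, is known as an oocyte maturation transcript of the ovary. Genes of the growing oocyte encode the egg coat, maternal RNA-binding and chromatin proteins such as ZAR1 and NPM2, the NLRP proteins of the egg's subcortical complex, and growth factors such as GDF9 that signal to the surrounding granulosa cells.

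Total estimated counts ran from 39195405 to 48274653 in the 10 hAPOE4 mice. The sexes matched their labels: Xist, the RNA of the inactive X chromosome, was at 653 to 987 CPM in the hAPOE4 females, and the Y-linked gene Ddx3y was at 47.1 to 67.2 CPM in the hAPOE4 males. Within the males, Xist was at 7.47 CPM in S174 and at 19.3 to 28.4 CPM in S175 to S178, against 3.96 to 6.80 CPM in the hAPOE3 males. Marker genes of the hippocampal subfields summed to 1300 to 1530 CPM in the hAPOE4 females and to 1060 to 1600 CPM in the hAPOE4 males.

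Omt2a split the hAPOE4 males and was a description, since the rule used it. Its level was 0.0423, 0.0215, 0.0429, 0.0468 and 0 CPM in females S164 to S168, 0 CPM in male S174, and 40.4, 23.4, 27.4 and 19 CPM in males S175 to S178. The threshold of 1 CPM therefore left out 4 mice, all of them hAPOE4 males, and kept 5 females and 1 male. No mouse lay near the threshold: the lowest level left out was 19 CPM and the highest level kept, in any of the 20 mice, was 0.0492 CPM. Each result below is given with and without them. Because fewer cells of a type and less RNA per cell cannot be told apart in bulk tissue, a level below is a level of the whole sample.

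The promoter windows of 4 genes are shown as examples. They span 250 bases before to 50 bases after a RefSeq start of each gene (build GRCm38.p6), 5′ to 3′ on the gene's strand. Capitals mark CAGGTG or its reverse complement CACCTG, 1 form of the E-box that basic helix-loop-helix proteins bind. Omt2a sets the columns, Zar1 and E330034G19Rik are oocyte genes among the calls, and Bhlhe41, which itself encodes a basic helix-loop-helix repressor of the circadian clock, is the most abundant of the called genes. All 4 windows shown hold the capitals, so they do not stand for the called genes as a whole, whose shares are given below.
Omt2a, chr9:78313999-78314298, minus strand: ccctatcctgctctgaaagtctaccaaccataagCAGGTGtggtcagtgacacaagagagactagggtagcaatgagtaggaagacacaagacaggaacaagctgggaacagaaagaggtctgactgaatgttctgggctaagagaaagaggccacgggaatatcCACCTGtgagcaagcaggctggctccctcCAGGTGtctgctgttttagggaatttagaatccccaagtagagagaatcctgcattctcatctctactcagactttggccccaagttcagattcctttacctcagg
Zar1, chr5:72581035-72581334, minus strand: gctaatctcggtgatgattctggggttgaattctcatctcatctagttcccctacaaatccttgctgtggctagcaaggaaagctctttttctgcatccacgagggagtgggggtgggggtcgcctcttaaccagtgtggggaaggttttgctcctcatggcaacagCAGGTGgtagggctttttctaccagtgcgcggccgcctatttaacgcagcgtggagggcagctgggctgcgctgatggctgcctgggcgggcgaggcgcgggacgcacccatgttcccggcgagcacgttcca
E330034G19Rik, chr14:24292964-24293263, plus strand: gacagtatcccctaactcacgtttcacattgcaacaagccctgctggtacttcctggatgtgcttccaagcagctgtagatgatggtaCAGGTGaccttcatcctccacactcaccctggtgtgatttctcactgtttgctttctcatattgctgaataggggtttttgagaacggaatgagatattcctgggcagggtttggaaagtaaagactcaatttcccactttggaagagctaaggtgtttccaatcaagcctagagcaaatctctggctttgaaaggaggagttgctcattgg
Bhlhe41, chr6:145865371-145865670, minus strand: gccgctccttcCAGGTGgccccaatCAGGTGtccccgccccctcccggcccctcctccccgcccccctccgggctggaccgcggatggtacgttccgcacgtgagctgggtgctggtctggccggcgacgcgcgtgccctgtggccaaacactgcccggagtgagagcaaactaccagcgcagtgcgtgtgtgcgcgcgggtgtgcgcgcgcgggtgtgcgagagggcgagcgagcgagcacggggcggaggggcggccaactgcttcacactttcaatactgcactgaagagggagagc
Counted from the start site, the capitals begin at -216, -85 and -56 in Omt2a and at -83 in Zar1. They begin at -162 in this window of E330034G19Rik and at -239 and -225 in Bhlhe41. E330034G19Rik has further RefSeq starts, whose windows are not shown. The window chr14:24292986-24293285 holds the letters at -184, and the window chr14:24293114-24293413 does not hold them. Of the 71 autosomal genes lower in hAPOE4 females (below), 38 had a promoter entry, and 14 of these (36.8%) held the letters CAGGTG on either strand, against 22.4% of the 13415 tested autosomal genes with an entry and 20.2% of all 32851 promoters. CAGGTG was 1 of 5 motifs looked at after the calls were known, and it overlaps CANNTG. The shares among the genes lower in females and among the tested autosomal genes were 2.63% and 10.5% for CACGTG, 73.7% and 69.9% for CANNTG, 13.2% and 6.78% for TAATTG, and 7.89% and 4.11% for TAATTA. These are counts of letters in a window and were not tested.

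hAPOE4 females and males exhibited few significant autosomal differences, and nearly all were lower in females. By edgeR's quasi-likelihood test with Benjamini-Hochberg adjustment, 74 of the 19253 autosomal genes passed an adjusted p of 0.05, which is 0.384% of those tested: 71 were lower in females (0.369%) and 3 were higher (0.0156%). At an unadjusted p under 0.05 the directions were less uneven, with 623 genes lower and 447 higher. Without S174 the counts were 132 lower and 3 higher, without S168 they were 60 and 15, and with only the 10 hAPOE4 mice in the fit it was 24, all lower. Female and male values did not overlap in 23 of the 74, against 117 of all autosomal genes tested (0.608%). Of the 71 lower genes, 49 were protein coding, 11 were pseudogenes and 11 were other RNAs. In 44 of the 74 the mean log2 CPM over the 10 hAPOE4 mice was above 0. That mean includes S175 to S178, so a gene above it can still be near the detection floor in the females. Gm10800, for example, had 3 to 13 counts in the females and 6 in S174. The median log2 fold change (female minus male) was -2.20 in the 71 lower genes and -0.01 over all autosomal genes tested. Calls among the lower genes were spread over 15 of the 19 autosomes, with 9 on chromosome 2, 8 on chromosome 7 and none on chromosomes 10, 12, 18 and 19.

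**Figure D1:**
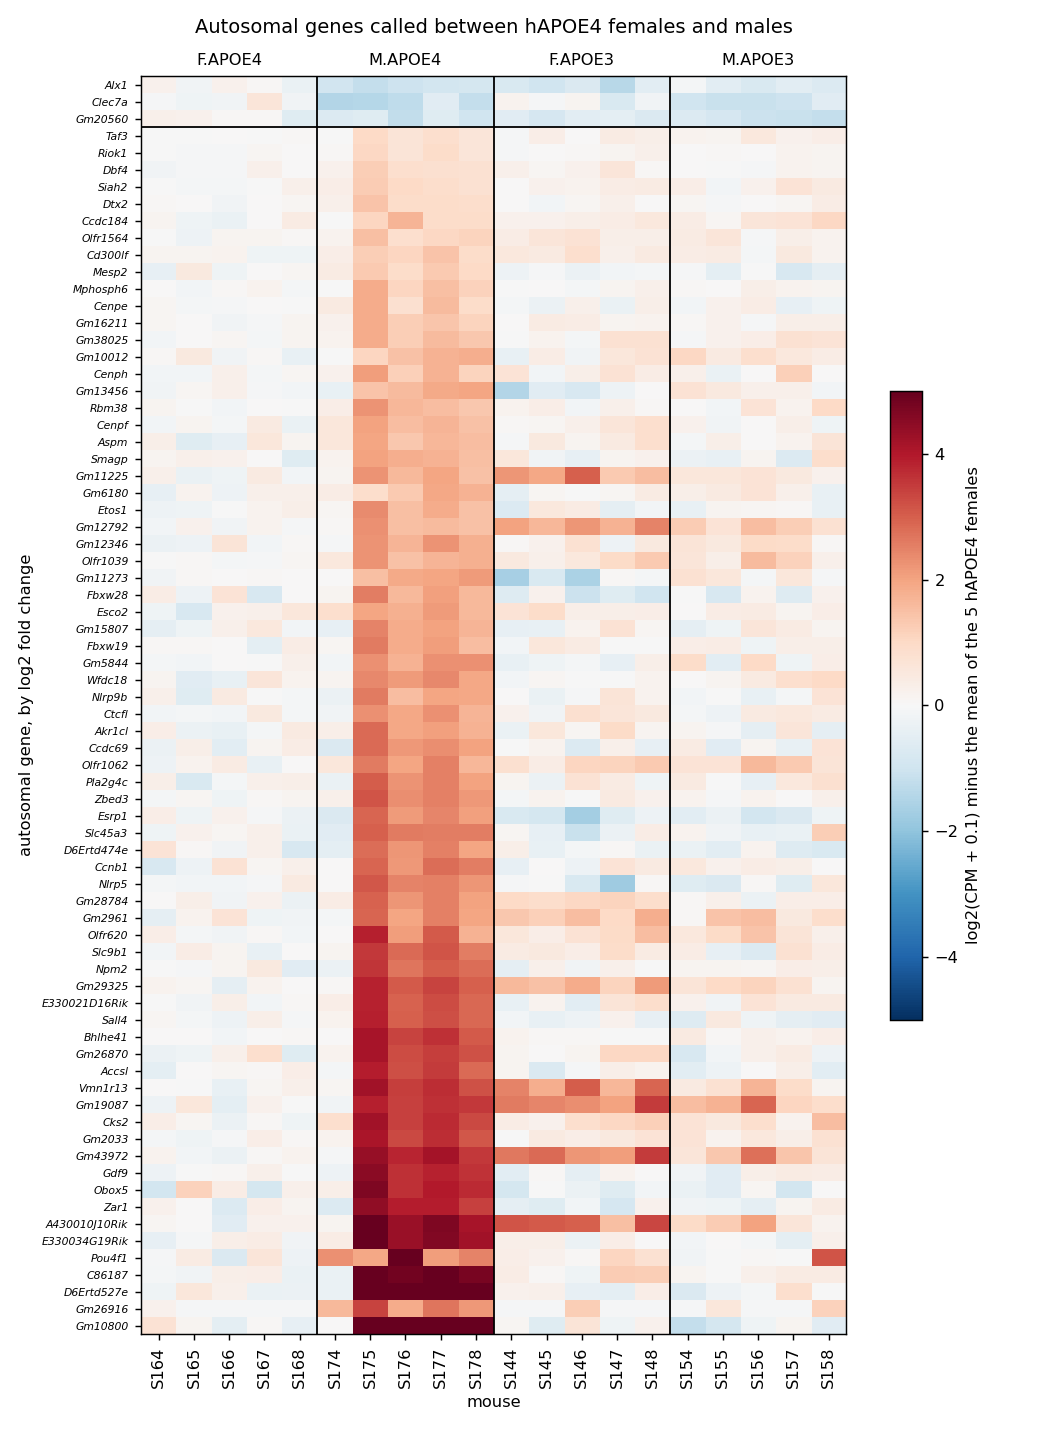
Levels of the 74 called autosomal genes (rows, by log2 fold change) in the 20 mice (columns, by group), as log2(CPM + 0.1) minus the mean of the 5 hAPOE4 females, with shades capped at 5 in either direction. The 71 genes lower in females are higher in S175 to S178 than in all 5 hAPOE4 females, while S174 lies within the female range in 43 of them and above every female in 20, whereas the 3 genes above the line are higher in all 5 hAPOE4 females than in all 5 hAPOE4 males.

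The genes lower in females separated 4 of the 5 males from the females rather than the sexes as a whole. In all 71, each of S175 to S178 exceeded every hAPOE4 female, and in 64 each exceeded all 16 other mice of the series. These genes were called on the same mice, so both counts partly follow from the calling. Neither pattern was counted over all autosomal genes tested. Male S174 lay within the range of the 5 females in 43 of the 71, below it in 8 and above it in 20. The mean of S175 to S178 was 1.72 to 140 times the female mean (median 5.46), whereas S174 was at a median of 1.06 times the female mean. Among the 4 males the order was also shared: S175 was the highest of them in 61 of the 71 genes and S178 the lowest in 47. Divided by the mean of the 4, the median level over the 71 genes was 1.39 in S175, 0.835 in S176, 1.01 in S177 and 0.770 in S178.

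Oocyte genes were the largest listed group among the calls. Of 87 genes on an oocyte list, 84 were autosomal and in the table, 27 passed the filter on low counts, and 12 of these were lower in females and 0 higher, where 0.369% of all autosomal genes tested were called lower: Accsl, C86187, E330021D16Rik, E330034G19Rik, Fbxw19, Fbxw28, Gdf9, Nlrp5, Nlrp9b, Npm2, Obox5 and Zar1. The filter needs 5 columns, and 62 of the listed genes had 10 or more counts in all 4 of S175 to S178. Only 23 had as many in S174. Members could thus enter the test through the males in which they are high, and the members tested are not all members. The list was also written with earlier results of these data known. The 12 of 27 beside 0.369% is therefore a description only. The median log2 fold change of the 27 was -0.58 beside -0.01 over all autosomal genes.

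Gdf9, the growth factor by which the oocyte directs its granulosa cells (chromosome 11, 53431023 to 53437904, plus strand, GRCm38), was measured at 0.803, 0.969, 1.01, 1.17 and 0.954 CPM in females S164 to S168. In the males it was at 0.791 CPM in S174 and at 24.2, 13.3, 15.4 and 13.1 CPM in S175 to S178. The 4 males were thus above every female and S174 was below every female. The log2 fold change was -3.76 (SE 0.50, n = 5 and 5, edgeR adjusted p = 0.000378), and the group means were 0.981 ± 0.132 CPM in females and 13.3 ± 8.35 CPM in males (SD).

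E330034G19Rik, an oocyte-listed gene whose promoter window is shown above (chromosome 14, 24293214 to 24309966), had the smallest p of the autosomal genes. It was at 0.380, 0.517, 0.686, 0.726 and 0.477 CPM in the females, at 0.725 CPM in S174 and at 23.3, 12.8, 16.0 and 11.8 CPM in S175 to S178 (log2 fold change -4.53, SE 0.53, edgeR adjusted p = 0.00011). S174 fell just under the highest female, so the groups overlap. C86187, a long noncoding RNA on chromosome 7 that overlaps a pseudogene on the other strand, was at 0.262 to 0.468 CPM in the females, 0.264 CPM in S174 and 12.2 to 23.5 CPM in the other males (log2 fold change -5.16, SE 0.67, edgeR adjusted p = 0.000253). Zar1, which encodes an RNA-binding protein needed at the oocyte to embryo transition, was at 0.0643 to 0.234 CPM in the females, 0.0660 CPM in S174 and 2.73 to 5.71 CPM in the other males (log2 fold change -4.22, edgeR adjusted p = 0.00111). Npm2, a chromatin protein of the egg nucleus, followed the same pattern, with 0.238 to 0.609 CPM in the females, 0.308 CPM in S174 and 3.15 to 5.88 CPM in S175 to S178.

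The other 15 tested genes of the oocyte list did not pass the test. They include genes that brain expresses, such as Kit, a receptor tyrosine kinase, at 89.4 to 122 CPM in the females and 38.0 to 105 CPM in the males, and Cpeb1, a translation regulator, at 98.3 to 119 CPM and 78.5 to 117 CPM. Zp2, an egg coat protein, was at 0.172 to 0.492 CPM in the females and at 0.120 to 0.730 CPM in the males, with S174 and the other 4 males overlapping. Granulosa cell and testis lists held 0 calls among 13 and 11 tested genes, and their summed levels were 55.9 to 59.7 and 115 to 131 CPM in hAPOE4 females against 55.1 to 65.8 and 93.5 to 134 CPM in hAPOE4 males. The summed oocyte list was at 246 to 301 CPM in the females, 280 CPM in S174 and 423 to 736 CPM in the other males. The part of other cells or of sample handling in these values was not tested.

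Bhlhe41 (also called Dec2), a transcriptional repressor of the circadian clock and the only called gene on a clock list of 19 tested genes, was the most abundant of the strongly different genes. It was at 54.3, 54.3, 49.1, 55.0 and 56.0 CPM in the females and at 54.7, 944, 566, 671 and 451 CPM in males S174 to S178. S174 lay inside the narrow female range and the 4 other males were 12.2 times the female mean on average. The log2 fold change was -3.32 (SE 0.41, edgeR adjusted p = 0.000162). In the 10 hAPOE3 mice the same gene stayed between 52.5 and 72.4 CPM. Zbed3, a zinc finger protein known as a partner of axin in Wnt signalling, was also well above the detection limit, with 7.38 to 9.30 CPM in the females, 10.1 CPM in S174 and 39.1 to 75.3 CPM in the other males (log2 fold change -2.35, SE 0.30, edgeR adjusted p = 0.000253).

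**Figure D2:**
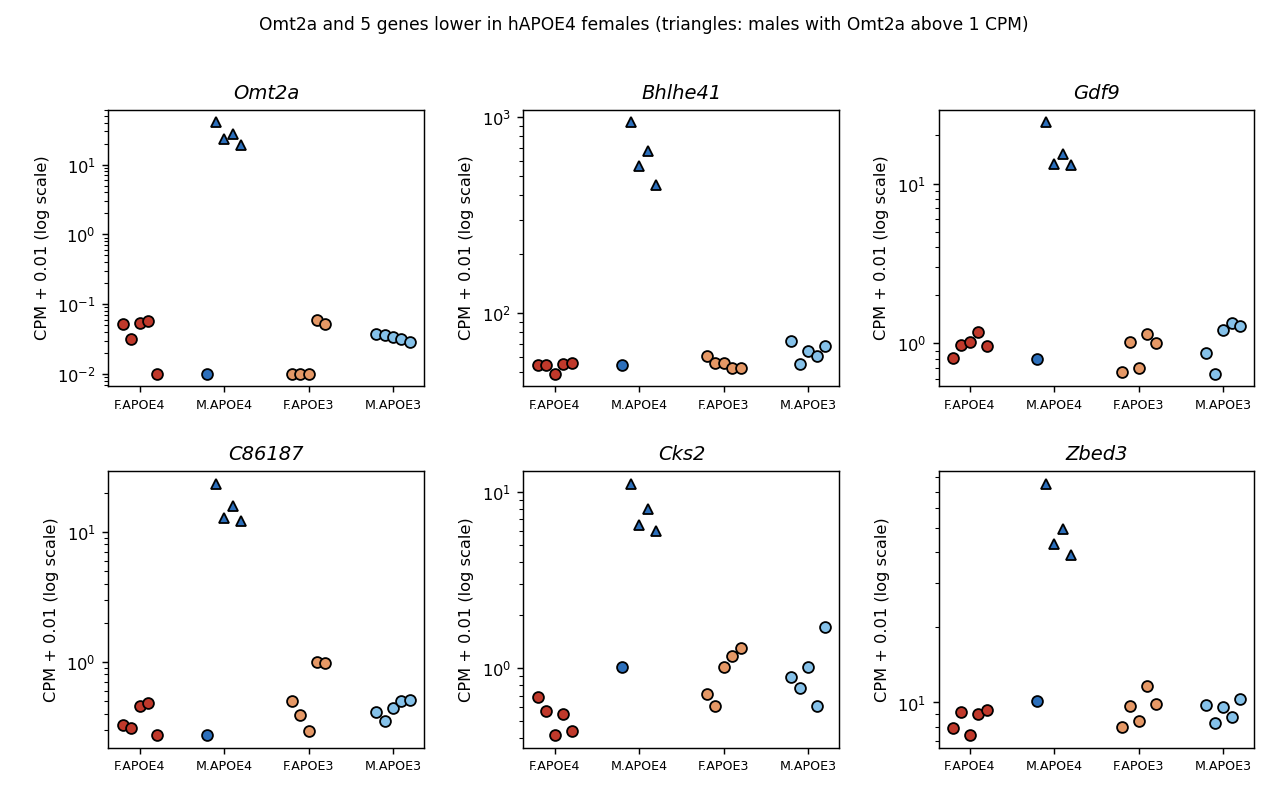
Levels of Omt2a and of 5 genes lower in hAPOE4 females in each of the 20 mice by group, in CPM + 0.01 on a logarithmic axis, where triangles are the 4 males with Omt2a above 1 CPM. In every panel the 4 triangles stand above all other points, and the remaining hAPOE4 male, S174, lies near the levels of the other groups.

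Several of the called genes are known from cell division, and they were picked from the calls after their values were seen, with no count against a list. Cks2, Ccnb1, Cenpf, Cenpe, Cenph, Aspm, Esco2 and Dbf4, which serve the cyclin-dependent kinases, the centromere, the spindle, sister chromatid cohesion and the firing of replication origins, were all lower in females. Cks2, a small subunit of cyclin-dependent kinases (chromosome 13, 51645232 to 51650660), was at 0.676, 0.560, 0.407, 0.539 and 0.429 CPM in the females and at 1.01, 11.1, 6.46, 7.99 and 6.01 CPM in males S174 to S178. Its sexes did not overlap, yet S174 lay far closer to the females than to the other males (log2 fold change -3.63, SE 0.44, edgeR adjusted p = 0.000162). Ccnb1, the mitotic cyclin B1, was at 0.148 to 0.600 CPM in the females, 0.330 CPM in S174 and 1.81 to 3.11 CPM in the others. Cenpf, a kinetochore protein, was at 0.859 to 1.55 CPM in the females, 1.69 CPM in S174 and 3.24 to 4.86 CPM in the others (log2 fold change -1.58, edgeR adjusted p = 0.00123). Esco2, an acetyltransferase of cohesin, was at 0.108 to 0.429 CPM in the females, 0.550 CPM in S174 and 0.998 to 1.5 CPM in the others.

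Of the 71 lower genes, 58 were on none of the lists. The largest fold change among genes with a mean log2 CPM above 0 was that of Gm10800 (chromosome 2), with 0.0643 to 0.275 CPM in the females, 0.132 CPM in S174 and 13.2 to 30.0 CPM in the other males (log2 fold change -6.77, SE 0.84). Sall4, a transcription factor of germ cells and pluripotent cells, was at 0.558 to 0.843 CPM in the females, 0.769 CPM in S174 and 5.50 to 11.4 CPM in the other males (named after its values were seen). Genes expressed at moderate levels in all mice also differed by smaller factors. Dtx2, an E3 ligase of the Deltex family, was at 6.88 to 8.35 CPM in the females, 9.39 CPM in S174 and 14.6 to 21.1 CPM in the others, and Rbm38, an RNA-binding protein, at 2.10 to 2.56, 2.92 and 5.99 to 11.2 CPM. Gm16211, a long noncoding RNA, was at 3.69 to 4.65 CPM in the females and 4.88 CPM in S174, beside 9.35 to 15.4 CPM in the other males. In none of these 5 genes did S174 reach the level of the other males.

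A430010J10Rik, a noncoding transcript of chromosome 6, was at 3.80 to 6.70 CPM in hAPOE4 females, 6.27 CPM in S174 and 101 to 199 CPM in S175 to S178, but at 16.3 to 58.0 CPM in hAPOE3 females and 6.42 to 23.2 CPM in hAPOE3 males. Vmn1r13, listed as a vomeronasal receptor, was at 2.92 to 4.56, 4.09, 35.5 to 72.3, 12.2 to 31.6 and 4.14 to 12.6 CPM in the same order. In hAPOE3 mice the female minus male log2 fold changes were thus positive, 1.80 for A430010J10Rik and 1.6 for Vmn1r13, and neither passed the test (edgeR adjusted p = 0.798 for both). The names Gm19087 and Gm2033 belong to processed pseudogenes, and Olfr1062 to an olfactory receptor family, whose reads can be shared with near-identical copies, so their levels are uncertain.

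When the 4 columns with Omt2a above 1 CPM were left out, 0 autosomal genes stayed different. In the refit of the 5 females against S174, with the spread taken from the other groups and S174 assumed to vary as they do, edgeR called 0 of 19253 autosomal genes (0%), the smallest adjusted p was 1, and 375 genes (1.95%) had an unadjusted p under 0.05. DESeq2 also called 0 in the refit, with 507 at an unadjusted p under 0.05. The median standard error of a log2 fold change was 0.277 in the refit and 0.166 with all 10 mice, so the refit was the less precise of the 2 fits. The X-linked gene Eif2s3x, called with all 10 mice at 0.604, was at 0.565 in the refit and was not called there. The refit therefore cannot decide whether the sexes differ at modest fold changes. The median log2 fold change of the 71 lower genes went from -2.20 to -0.09, with 43 below 0 and 28 above 0. Bhlhe41 went from -3.32 to -0.02 (SE 0.14), Zbed3 from -2.35 to -0.24 (SE 0.20) and Gdf9 from -3.76 to 0.31 (SE 0.40). Because the columns were left out by the level of an oocyte transcript, the loss of the oocyte genes in the refit is partly fixed by that choice.

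**Figure D3:**
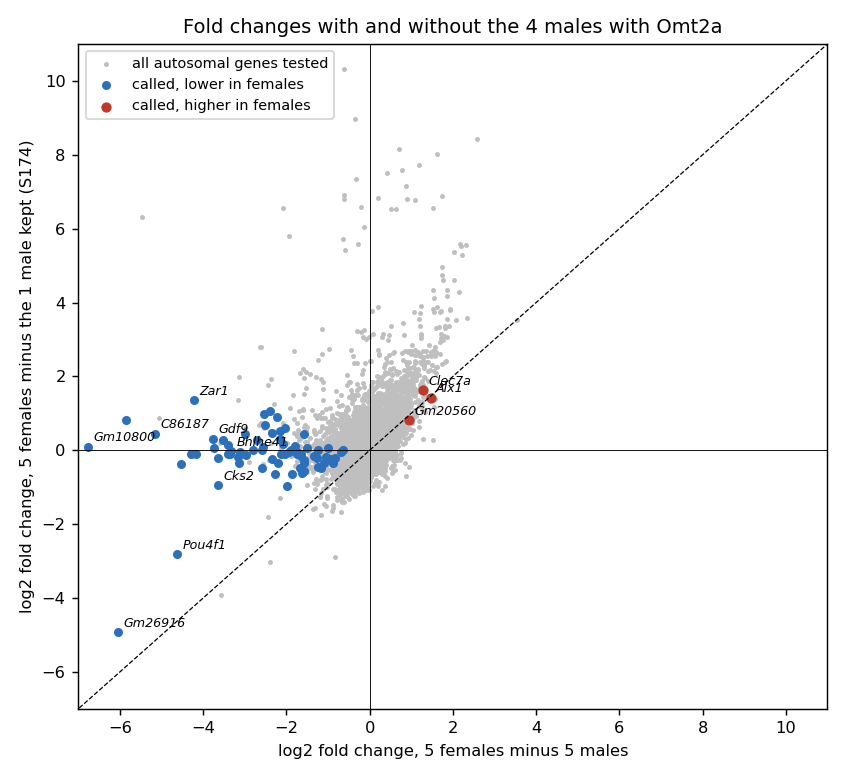
Log2 fold change (female minus male) of each autosomal gene tested with all 10 hAPOE4 mice (horizontal axis) and in the refit with the 1 male kept (vertical axis), with called genes in colour and equality as a dashed line. Most of the 71 blue points lie along the horizontal line at 0, while Clec7a, Alx1 and Gm20560 lie close to the dashed line.

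In the refit, 5 of the 74 kept their direction at an unadjusted p under 0.05: Clec7a, Alx1 and Gm20560, which were the 3 higher genes, and Gm26916 and Pou4f1, which were lower. Each of the 5 had an adjusted p of 1 in the refit. The refit uses 6 of the same 10 mice, so these values are a description beside the 1.95% of all autosomal genes. Gm26916 and Pou4f1 were named after their values were seen.

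Clec7a, which encodes the pattern recognition receptor dectin-1 and marks microglia that respond to damage or amyloid, was higher in females. Its levels were 1.80, 1.57, 1.65, 2.86 and 1.65 CPM in females S164 to S168 and 0.616, 0.626, 0.703, 1.21 and 0.754 CPM in males S174 to S178. All 5 females were above all 5 males, and S174 was the lowest of the males. The log2 fold change was 1.28 (SE 0.23, edgeR adjusted p = 0.00803), with means of 1.90 ± 0.539 CPM and 0.782 ± 0.248 CPM (SD, n = 5 each). In the refit it was 1.62 (SE 0.43, edgeR adjusted p = 1). With only the 10 hAPOE4 mice in the fit, none of the 3 higher genes was called, with log2 fold changes of 1.28 for Clec7a, 1.47 for Alx1 and 0.94 for Gm20560 (edgeR adjusted p = 0.0745, 0.0587 and 0.22). In hAPOE3 mice 4 of 5 females were above the highest male, with 1.06 to 2.11 CPM in females and 0.817 to 1.22 CPM in males (log2 fold change 0.90, SE 0.23, edgeR adjusted p = 0.592), and the interaction of sex and APOE was 0.38 (SE 0.33, edgeR adjusted p = 1), so a difference in the sex effect between the genotypes was not detected.

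Alx1, a homeobox transcription factor of craniofacial mesenchyme (chromosome 10, 102998707 to 103030215), was at 0.423, 0.301, 0.429, 0.375 and 0.262 CPM in the females and 0.132, 0.1, 0.120, 0.143 and 0.146 CPM in the males. The groups were apart, but the level was low: 11 to 20 counts in the females and 4 to 6 in the males. The log2 fold change was 1.46 (SE 0.28, edgeR adjusted p = 0.0113) and 1.42 (SE 0.56, edgeR adjusted p = 1) in the refit, and the call was lost without male S175. In hAPOE3 mice the sign was opposite, -0.52 (SE 0.29, edgeR adjusted p = 0.798), and the interaction passed the test at 1.98 (SE 0.40, edgeR adjusted p = 0.0408). That interaction call was lost with another expression filter and without a filter on counts. It was also lost when any mouse of S164 to S167 or S175 to S178 was left out. An interaction above 0 was still called with DESeq2, with another normalization and without S168 or S174. Gm20560, an antisense RNA within Dnah6, was at 1.42, 1.38, 1.22, 1.22 and 0.739 CPM in the females and 0.681, 0.726, 0.442, 0.738 and 0.535 CPM in the males, so that female S168 was only just above the highest male. Its log2 fold change was 0.94 (SE 0.20, edgeR adjusted p = 0.0336) and 0.81 (SE 0.36, edgeR adjusted p = 1) in the refit, and it lost its call in 7 of the 10 fits that left out 1 mouse. Whether the reads belong to Dnah6 was not tested.

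**Figure D4:**
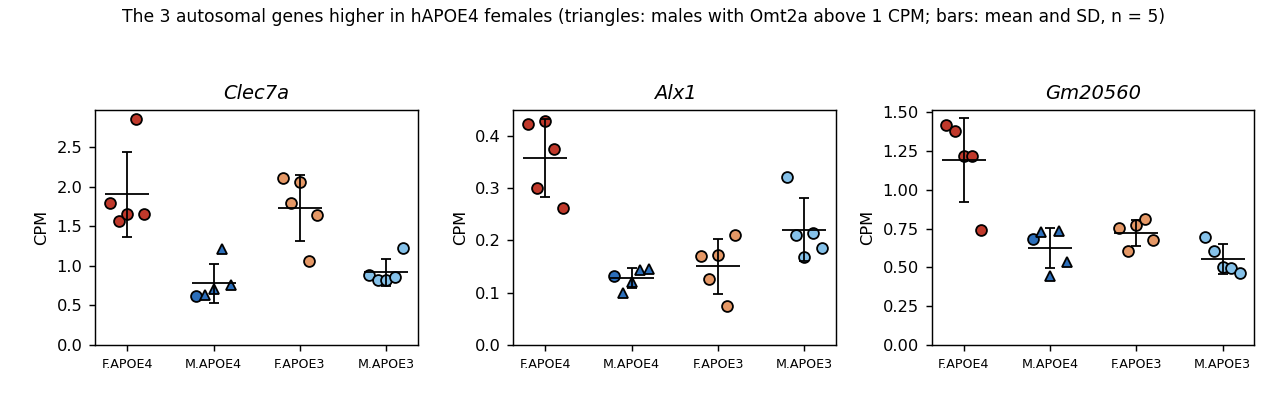
Levels of Clec7a, Alx1 and Gm20560 in CPM in each of the 20 mice by group, with the mean and SD of each group of 5 as bars and triangles for the males with Omt2a above 1 CPM. In each panel the 5 hAPOE4 females lie above the 5 hAPOE4 males. The fifth male, S174, lies among the triangles for Alx1 and Gm20560 and just below the lowest triangle for Clec7a.

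Pou4f1, a homeobox factor of sensory neurons and the habenula, next to the hippocampus, was at 0.127, 0.215, 0.0429, 0.258 and 0.0954 CPM in the females and at 1.06, 0.801, 14.5, 0.904 and 1.22 CPM in the males. Its groups did not overlap, and male S176 stood far above the other 4 (log2 fold change -4.63, SE 0.99, edgeR adjusted p = 0.0358; in the refit -2.82, edgeR adjusted p = 1). Thalamus markers, from a neighbouring region, moved in part of the same mice: all 14 listed genes had a fold change below 0, with a median of -0.87. Of these, 0 were called and 9 had an unadjusted p under 0.05. Over all 19253 autosomal genes tested, 10058 were below 0 and 623 were lower at an unadjusted p under 0.05. The summed level of the thalamus markers was 607 to 730 CPM in the females. It was 695, 687 and 722 CPM in S174, S175 and S177, and 1650 and 1480 CPM in S176 and S178. Without the 4 columns the median was 0.17. Gm26916, a long noncoding RNA on chromosome 14, was at 0.0211 CPM in S164, at 0 in the other females and at 0.220, 0.977, 0.281, 0.571 and 0.365 CPM in the males, too low in the females for a fold change to be read.

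For microglial genes of the damage-associated state the count and the summed level gave different pictures. The sum of the list was 3310 to 3460 CPM in the females and 3090 to 3810 CPM in the males, so the sexes overlapped and 2 males, S176 and S178, were above every female. Of 32 tested genes, 26 had a fold change above 0, with a median of 0.21 beside -0.01 over all autosomal genes. Among the 32, 1 was called and 9 had an unadjusted p under 0.05, all of them higher in females. Over all 19253 autosomal genes tested, 9195 were above 0, 3 were called higher and 447 were higher at an unadjusted p under 0.05. Itgax, the integrin CD11c, was at 1.73, 1.23, 1.76, 2.90 and 1.76 CPM in the females and at 0.418, 0.351, 1.30, 0.523 and 0.584 CPM in the males (log2 fold change 1.54, SE 0.39, edgeR adjusted p = 0.131). Cst7, a cystatin of activated microglia, was at 0.495 to 1.59 CPM and 0.176 to 0.462 CPM (log2 fold change 1.16, edgeR adjusted p = 0.471), and Gpnmb, a lysosomal glycoprotein, at 5.53 to 9.18 CPM and 4.46 to 5.78 CPM (0.56, edgeR adjusted p = 0.189). Neither Itgax nor these other genes passed the edgeR test. DESeq2 called Itgax and Gpnmb (DESeq2 adjusted p = 0.0131 and 0.0385) but not Cst7. In the refit the list median was 0.39, and in hAPOE3 mice it was -0.01. Homeostatic microglia genes had a median of 0.01 and 0 calls among 17, with summed levels of 567 to 606 CPM in the females and 546 to 623 CPM in the males.

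Markers of tissue at the edge of the hippocampus varied between mice in the same direction. All 15 choroid plexus genes (median log2 fold change 1.85), all 14 genes of meningeal fibroblasts (0.96) and all 11 of border macrophages (0.75) had fold changes above 0, and none was called. Over all 19253 autosomal genes tested, 9195 had a fold change above 0. The defining choroid plexus gene, Ttr, was at 4220, 5600, 5900, 439 and 66.5 CPM in the females and at 69.9, 94.7, 2560, 115 and 718 CPM in the males, so the level was high in some mice and low in others of both sexes. The sum of the choroid plexus list was 121 to 6830 CPM in the females, 138 CPM in S174 and 159 to 3060 CPM in the other males, and the median fold change went to 3.76 in the refit, in which S174 is the only male. With the choroid plexus score as a covariate, Clec7a and Alx1 kept their calls and Gm20560 did not, and 60 of the 71 lower genes were called again. Igkc, the immunoglobulin kappa constant region of B lineage cells, was at 6.68 and 5.51 CPM in S164 and S165 and at 0.119 to 0.316 CPM in the other 8 mice, and missed the threshold (log2 fold change 3.54, SE 0.83, edgeR adjusted p = 0.0737).

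**Figure D5:**
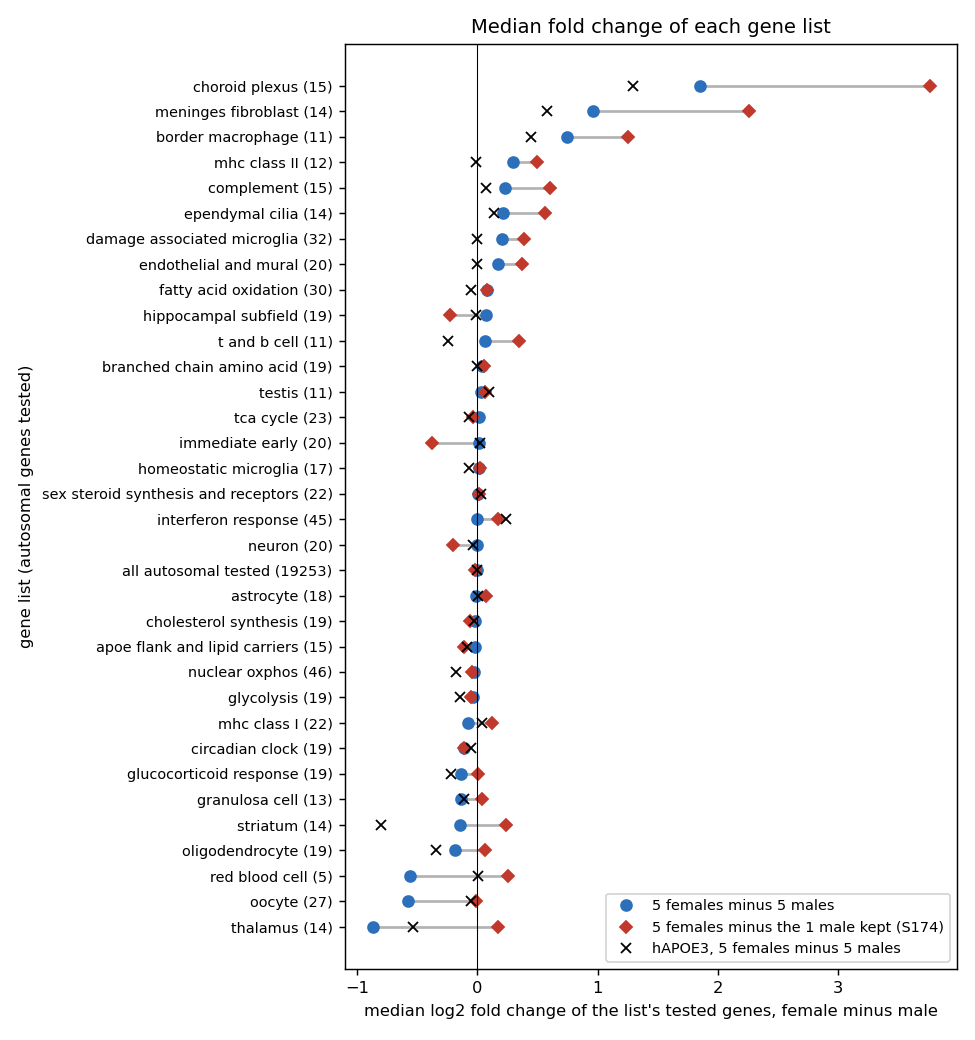
Median log2 fold change (female minus male) of the tested autosomal genes of each list, with the number of genes in brackets, for all 10 hAPOE4 mice (circles), the refit with the 1 male kept (diamonds) and the hAPOE3 mice (crosses). Choroid plexus, meningeal and border macrophage lists lie furthest above 0 and move further up in the refit, whereas the oocyte list moves from -0.58 to -0.01.

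Genes of energy metabolism did not pass the test between hAPOE4 sexes. Glycolysis (19 tested), the TCA cycle (23), fatty acid oxidation (30), branched-chain amino acid degradation (19), cholesterol synthesis (19) and the nuclear genes of oxidative phosphorylation (46) held 0 calls, with medians between -0.04 and 0.08. In fatty acid oxidation 22 of 30 genes had a fold change above 0, beside 9195 of all 19253 autosomal genes tested. At an unadjusted p under 0.05, 3 of the 30 were higher, beside 447 of all 19253. These were Decr1, Acadm and Acsl1, with log2 fold changes of 0.21, 0.17 and 0.16. Interferon response genes (45 tested), both classes of major histocompatibility complex genes (22 and 12) and complement (15) held 0 calls as well. H2-Aa and Cd74 of class II had log2 fold changes of 1.29 and 1.08 (edgeR adjusted p = 0.825 for both), and in S168 they were at 0.620 and 2.27 CPM, the lowest of the females. Sex steroid synthesis and receptor genes (22 tested) had a median of 0.01 and 0 calls. Apoe, counted on mouse transcripts, was at 52.9 to 71.4 CPM in the females and 58.5 to 98.7 CPM in the males (log2 fold change -0.31, SE 0.16, edgeR adjusted p = 0.947). The mice carry human APOE and reads were mapped to mouse transcripts only, so this value does not measure the level of human APOE.

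The hAPOE3 mice were used to ask whether the sex difference itself depended on the genotype. Between hAPOE3 females and males, edgeR called 1 of the 19253 autosomal genes (0.00519%), with 979 at an unadjusted p under 0.05 and 13 called by DESeq2. The called gene, Gm26822, a long noncoding RNA of chromosome 16, was no call in hAPOE4 mice (log2 fold change 2.68 in hAPOE3 and -0.22 in hAPOE4 mice). The interaction of sex and APOE passed the test for 31 autosomal genes (0.161%), 30 of them with a value below 0, and 24 of these 31 were also among the 74. Without S174 the interaction passed for 78. The interaction shares its 10 hAPOE4 mice with the comparison of the sexes, and M.APOE4 includes the 4 males with Omt2a above 1 CPM, so its calls are not separate evidence.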

How the data were processed

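Hippocampal RNA of 20 mice, 5 per group, was analysed by the groups of the labels. The authors prepared polyA libraries, quantified paired-end reads with Salmon 0.91 (version from the submitters' processing notes) against mouse transcripts and summed them per gene with tximport. The deposited table holds estimated counts per gene, as whole numbers, so that rounding changed nothing. A second deposited table of counts normalized with DESeq2 was not used. Columns were matched to mice by name, and 0 columns of other samples were found. Whether counting used strand is not given in the sources used here, so genes that overlap on opposite strands are uncertain.

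Genes with at least 10 counts in at least 5 of the 10 hAPOE4 columns entered the quasi-likelihood test of edgeR 4.0.16 (R 4.3.3, normalization by TMM, 1 mean per group over all 20 mice), with Benjamini-Hochberg adjustment over all 20744 genes and a threshold of 0.05. Fold changes are female minus male, and a standard error is the absolute fold change divided by the root of F. CPM uses library sizes scaled by TMM. Positions are from GENCODE M21 (GRCm38), which matched 31058 symbols, and 758 tested genes had no position and were not counted as autosomal. The refit left out the hAPOE4 columns with Omt2a above 1 CPM, and Omt2a itself failed the count filter. Libraries held 35778879 to 52520279 counts, and all 45 pairs of hAPOE4 mice differed by more than sampling noise (chi-square per degree of freedom of at least 9.16), so none was counted as a repeat. The animals of a group are separate mice.

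Named genes were chosen by a rule: among called genes, up to 10 per direction by fold change with a mean log2 CPM (prior count 2) above 0, up to 10 per direction by p without overlap between the sexes or staying different, up to 3 per direction and list, with Omt2a, Apoe and Clec7a. Genes named outside this rule, apart from the sex check genes Xist and Ddx3y, are to be read as named after their values were seen. This holds also where it is not said beside them. The comparison, the gene lists and the motifs were chosen with earlier results of these data known. Alternatives covered DESeq2 1.42.0, the normalization, the filter, the mice in the fit, covariates and each mouse left out. The scripts were tested on simulated counts. Promoters are RefSeq entries on GRCm38.p6.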

Additional observations from a re-analysis of the deposited data

Results flagged for a closer look

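Among the 25 named genes in the 2 hAPOE4 groups (50 groups of 5), 18 held a mouse set far apart from the other 4 on the log2 CPM scale, by Dixon's criterion at the 95% level, where chance alone flags about 1 in 20. In 13 of these 18 the mouse was male S174, always on the low side: E330034G19Rik (0.725 CPM), Cks2 (1.01 CPM), Bhlhe41 (54.7 CPM), Gm10800 (0.132 CPM), Gm2033 (0.374 CPM), C86187 (0.264 CPM), Gdf9 (0.791 CPM), A430010J10Rik (6.27 CPM), E330021D16Rik (1.06 CPM), Vmn1r13 (4.09 CPM), Gm43972 (2.79 CPM), Gm19087 (0.418 CPM) and Omt2a (0 CPM). The genes share the 4 other males, most were named because those 4 males set the sexes apart, and Omt2a is the gene that split the males. The number of flags on S174 therefore follows from how the genes were chosen. Neither it nor the 18 is to be read against the 1 in 20. In the females, S166 was low for Bhlhe41 (49.1 CPM), A430010J10Rik (3.80 CPM) and Dtx2 (6.88 CPM), S167 was high for Clec7a (2.86 CPM) and S168 was low for Gm20560 (0.739 CPM).

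For 17 named genes the female minus male difference itself differed between hAPOE4 and hAPOE3 mice by the interaction term of edgeR (adjusted p from 0.00231 to 0.0408). The interaction on the log2 scale was -4.77 for E330034G19Rik, -3.56 for Cks2, -3.11 for Bhlhe41, -7.80 for Gm10800, -3.53 for Gm2033, -2.38 for Zbed3, -5.67 for C86187, -3.51 for Gdf9 and -3.05 for E330021D16Rik. It was -6.09 for A430010J10Rik, -3.62 for Gm28784, -5.02 for Vmn1r13, -4.90 for Gm43972, -1.99 for Cenpf, -2.31 for Esco2 and -4.41 for Gm19087. Only Alx1, at 1.98, had a value above 0, and its call was lost in most fits that left out 1 mouse. In the 16 genes with a value below 0, males S175 to S178 exceeded all 5 hAPOE4 females. The interaction was not refitted without those 4 mice, so their part in it was not tested.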

How the results depend on the processing

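No paired analysis was possible because the labels give no pairing of mice between the groups. The 71 lower and 3 higher autosomal calls between hAPOE4 sexes numbered 69 to 76 lower and 3 higher under another normalization, another expression filter, a robust prior and a choroid plexus covariate added after seeing the data. Under that covariate 60 of the 71 lower and 2 of the 3 higher genes were among the calls, and Gm20560 was not (edgeR adjusted p = 0.0823). The counts moved to 110 lower and 13 higher with DESeq2, to 160 lower and 4 higher without a filter on counts, to 24 lower and 0 higher with only the 10 hAPOE4 mice (edgeR, 1074 at an unadjusted p under 0.05) and to 0 in both directions with the oocyte score as a covariate (edgeR, 303 at an unadjusted p under 0.05). Leaving out 1 mouse gave 52 to 132 lower, the most without S174, and 1 to 15 higher, the fewest without S175 and the most without S168. The count that stayed different without the columns with Omt2a above 1 CPM was 0 in the 14 alternatives run, among them DESeq2, thresholds of 0.5 and 5 CPM and the columns left out among all 20 mice, which gave the same 4 columns. At an unadjusted p under 0.05 in the refit, 2 to 17 of the called genes kept their direction. Of the 14 alternatives, the oocyte covariate left out no columns. The thresholds of 0.5 and 5 CPM and the choice among all 20 mice repeated the main refit. The refit without S174 has no male and was not run. The interaction moved from 31 to 50 with DESeq2 and to 23 to 78 when 1 mouse was left out, the highest without S174. The hAPOE3 comparison moved from 1 to 13 with DESeq2 and to 1 to 5 when 1 mouse was left out, with 5 without S145. Under the oocyte covariate, which 4 of the 5 hAPOE4 males set, the log2 fold change turned for Apoe (0.043), C86187 (0.17) and Gdf9 (0.13), and the other 21 named genes lost their calls with the same sign. Bhlhe41 went from -3.32 to -0.19, whereas Clec7a was at 1.59 and Gm20560 at 0.87, beside 1.28 and 0.94 without the covariate. With only the 10 hAPOE4 mice, 7 of the 24 named genes tested lost theirs. The cause of these changes was not tested. Levels under about 1 CPM rest on few counts and limit the precision of Alx1, Gm20560 and Gm26916.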

Other observations

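Further genes were called higher in hAPOE4 females only under other settings, and they are named here after their values were seen. DESeq2 called 10 such genes and edgeR called 12 without female S168, with Cpxm2, Esm1, Igkc, Lum and Pagr1a in both sets. Lum, the proteoglycan lumican of fibroblasts, was at 9.53, 11.7, 11.2, 7.42 and 2.77 CPM in females S164 to S168 and at 2.79, 3.18, 5.48, 3.50 and 4.06 CPM in males S174 to S178. Female S168 was thus below every male. Its edgeR adjusted p was 0.247 with all mice and 0.0248 without S168. Esm1, a proteoglycan of endothelial tip cells, was at 1.27, 1.33, 1.09, 0.820 and 0.358 CPM in the females and at 0.150 to 0.381 CPM in the males (edgeR adjusted p = 0.166, and 0.0477 without S168).

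Thbd, the endothelial receptor thrombomodulin, was at 23.2 to 26.4 CPM in females S164 to S167, 12.4 CPM in S168 and 11.3 to 17.0 CPM in the males, and Tfpi, the inhibitor of tissue factor, at 6.36 to 7.19, 2.96 and 3.19 to 4.72 CPM. In both genes S168 lay with the males. The same female had the lowest summed choroid plexus list of the hAPOE4 females, 121 CPM against 565 to 6830 CPM, and of the meningeal fibroblast list, 297 CPM against 1020 to 1700 CPM, and the part of this tissue in the calls was not tested. Pagr1a, which encodes a cofactor of histone methyltransferase complexes, was at 5.47, 8.22, 10.2, 7.77 and 4.75 CPM in the females and at 2.43 to 4.33 CPM in the males, so that all 5 females were above all 5 males (edgeR adjusted p = 0.103, and 0.0477 without S168).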
